A study of Caenorhabditis elegans with 51 samples.

Results

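The D blastomere of the *Caenorhabditis elegans* embryo gives rise only to body wall muscle, and its descendants are compared here with all the other cells of the same embryos. The comparison used 12 of the 51 libraries of the series, which are the libraries of D descendants (D+) and of the remaining cells (D-) from 6 of the 8 dissected D embryos, numbered 1, 2, 3, 4, 6 and 7. Embryo 5 was left out because the authors had rejected it for its high share of spike-in transcripts. Embryo 8 was left out because its D+ library held almost no transcript of *fkh-2*, the gene whose promoter drives the D marker. The 6 embryos were thus selected on a measured value, RPKM of *fkh-2* in D+, so the difference in *fkh-2* is given as a description without a test, and the tests of other genes over the 6 embryos are not independent of the choice of embryos.

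D is the sister of P4, the founder of the germ line. In D and in the muscle-forming part of the C lineage, the caudal homolog PAL-1 is known to act above a set of muscle regulators, which includes the MyoD homolog HLH-1, the SRF-related factor UNC-120 and the Hand homolog HND-1, and these in turn act on genes of the contractile apparatus. D descendants are among the cells that move inside during gastrulation.

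Single embryos at the stage of about 100 cells were dissected by hand, and each library came from the cells of 1 embryo. D+ and D- came from embryos of the genotype pFKH-2::mNG, in which the *fkh-2* promoter drives a fluorescent protein, and both groups carried that transgene. By the design of the dissection, D- is every cell outside the D lineage, among them P4 descendants and the muscle precursors of other lineages. The cells that each library in fact held were not recorded in the labels. MS+ and MS- (n = 7 embryos, pCEH-51::mNG) and C-in, C-out and C- (n = 5 embryos, pR02D3.1::mKate2;pHLH-1::mNG) are the matching groups of the MS and C lineages, where C-in holds the C descendants that internalize and C-out those that do not. The labels name no drug treatment and no wild-type control, and all strains carried a lineage marker.

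Counts on genes summed to between 1279605 and 2058799 per D+ library and between 2029176 and 2361668 per D- library. Detected genes, meaning genes above 25 RPKM (the authors' read counts scaled by gene length and by sequencing depth), numbered 1766 to 3446 per D+ library and 4024 to 5131 per D- library, and these ranges did not overlap. D+ libraries also resembled each other less than D- libraries did. On log2(RPKM + 25), the Pearson correlation across genes of each library with the mean of the other libraries of its group was 0.396 to 0.515 in D+ and 0.641 to 0.775 in D-. With the mean of D-, D+ libraries correlated at 0.410 to 0.487. D+ of embryos 4 and 6 were closer to the D- mean (0.438 and 0.466) than to the other D+ libraries (0.396 and 0.451). D+ of embryos 1, 2, 3 and 7 were closer to the other D+ libraries. Ribosomal RNA genes took 2.06% to 6.63% of the counts in D+ and 0.897% to 3.33% in D-. A gene without any count may have had up to 3, or 1.27 to 2.34 CPM in these 12 libraries, a limit that covers counting error alone.

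Both libraries of embryo 8 stood apart, not D+ alone. Its D+ library held *fkh-2* at 2.35 RPKM, *hlh-1* at 7.11 RPKM and *unc-120* at 2.42 RPKM. Its D- library correlated at 0.503 with the mean of the 6 other D- libraries, below the range those had among themselves. Of the 87 genes that are lower in D+ in the comparison below, 13 were above 25 RPKM in D- of embryo 8, whereas each of the 6 other D- libraries had 85 to 87 of them above that level. Only genes above 25 RPKM in at least 6 of the 12 libraries were tested, and embryo 8 did not enter this filter. For 63 of the 87 it required all 6 of those D- libraries to be above 25 RPKM, so this contrast is in part fixed.

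**Figure D1:**
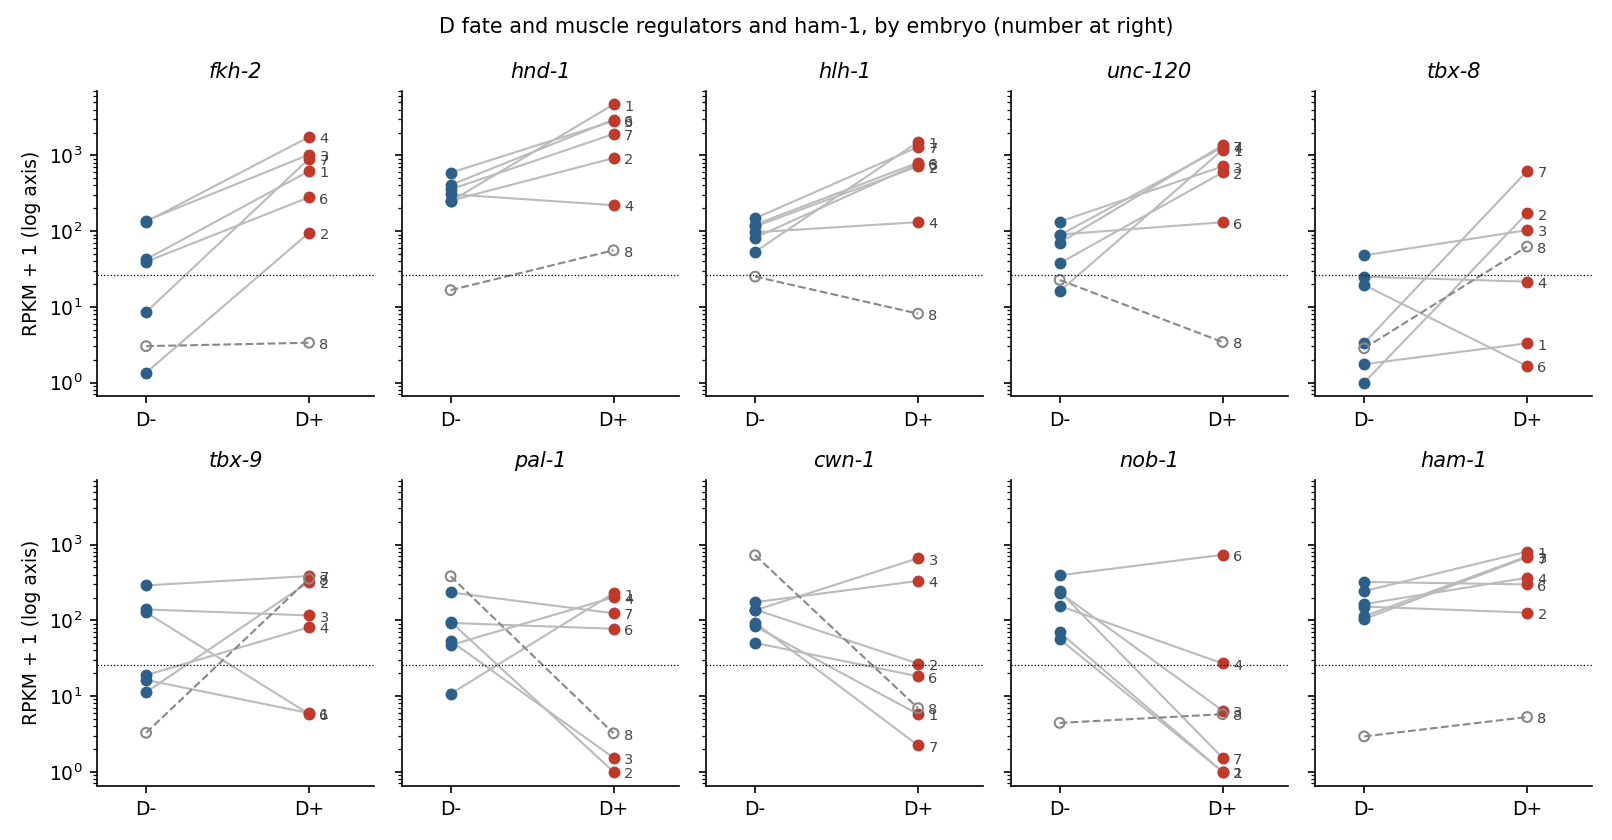
RPKM + 1 (log axis) of 9 D fate and muscle regulators and *ham-1* in D- (blue) and D+ (red), with a line joining the libraries of 1 embryo and the embryo's number at the right. Open grey circles with a dashed line are embryo 8, which was left out, and the dotted line marks 25 RPKM. *fkh-2*, *hlh-1* and *unc-120* were higher in D+ in each of the 6 embryos, while *tbx-9*, *pal-1* and *cwn-1* moved both ways.

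The marker transcript itself was present in all 6 D+ libraries. RPKM of *fkh-2*, a forkhead transcription factor, was 619, 93.9, 1020, 1749, 278 and 899 in D+ of embryos 1, 2, 3, 4, 6 and 7, and 41.3, 0.35, 136, 132, 38.3 and 7.51 in the D- libraries of the same embryos. Every embryo had the higher value in D+, and the groups overlapped only because D+ of embryo 2 was below D- of embryos 3 and 4. That 93.9 was the lowest *fkh-2* value among the embryos kept, against 2.35 in embryo 8. The fitted log2 fold change was 5.24 (SE 0.96).

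All 3 muscle regulators that act downstream of PAL-1 rose in D+. RPKM of *hlh-1* was 1504, 716, 767, 130, 800 and 1287 in D+ and 52.3, 114, 80.8, 95.2, 121 and 146 in D-, in the same order of embryos. It was higher in D+ of 6 of 6 embryos, and only D+ of embryo 4 fell inside the range of D-. The log2 fold change was 3.57 (SE 0.98), with an adjusted p of 0.0173 in edgeR's quasi-likelihood test, adjusted after Benjamini-Hochberg over all genes tested. Throughout, an SE beside a log2 fold change was computed from that fold change and the test's F statistic. It is not the standard error of the differences of the 6 embryos.

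RPKM of *unc-120* was 1181, 593, 712, 1278, 130 and 1355 in D+ and 15, 36.5, 132, 87.4, 89 and 69.0 in D-. Again 6 of 6 embryos were higher in D+, and the low library was D+ of embryo 6, which was just under the highest D- library. The log2 fold change was 4.25 (SE 0.94, edgeR adjusted p = 0.00183).

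RPKM of *hnd-1* was 4702, 918, 2835, 219, 2957 and 1913 in D+ and 246, 251, 588, 305, 404 and 354 in D-. It was higher in 5 of 6 embryos, with embryo 4 as the exception, and the other 5 D+ libraries lay above every D- library. The log2 fold change was 2.95 (SE 0.64, edgeR adjusted p = 0.00156). With embryo 8 kept, the adjusted p became 0.146 for *hlh-1*, 0.0921 for *unc-120* and 0.0475 for *hnd-1*, so that *hnd-1* alone of the 3 stayed past 0.05. The call of *hlh-1* was also lost without embryo 1, 2, 3 or 7 (adjusted p up to 0.0994), and those of *unc-120* and *hnd-1* held without each embryo.

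The other members of the list of D and muscle fate regulators did not pass edgeR's test. *pal-1* itself was at 226, 0, 0.53, 200, 76.3 and 123 RPKM in D+ and at 9.68, 94.8, 52.4, 46.0, 91.3 and 232 RPKM in D-. Its level was higher in D+ of embryos 1 and 4 and higher in D- of the other 4, and the log2 fold change was -0.11 (SE 1.76, edgeR adjusted p = 0.984). The T-box gene *tbx-9* ranged from 4.79 to 383 RPKM in D+ and from 10.2 to 288 RPKM in D-, and its log2 fold change was 0.92 (SE 1.53, edgeR adjusted p = 0.820). Its paralog *tbx-8* missed the filter on low values, with 0.65 to 617 RPKM in D+ and 0 to 46.7 RPKM in D-. Its paired difference on log2(RPKM + 25) was 1.26 ± 2.06 (SD, n = 6 embryos, two-sided exact sign-flip permutation test p = 0.25, where 0.0312 is the smallest p possible).

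Wnt ligand *cwn-1* reached 659 and 330 RPKM in D+ of embryos 3 and 4 and was at 1.23 to 25.8 RPKM in the 4 others, while D- was at 49.3 to 173 RPKM. Its log2 fold change was -1.12 (SE 1.56, edgeR adjusted p = 0.776). The posterior Hox gene *nob-1* was at 0 to 26 RPKM in 5 D+ libraries and at 731 RPKM in D+ of embryo 6, against 55.6 to 391.7 RPKM in D- (log2 fold change -5.0, SE 1.83, edgeR adjusted p = 0.101, DESeq2 adjusted p = 0.00281). The second Hox gene *php-3*, the even-skipped homolog *vab-7* and the zinc finger gene *scrt-1* missed the filter. Each was above 25 RPKM in no more than 1 library of either group, and *scrt-1* had no count in any D+ library. Their paired differences were -0.29 ± 1.13, -0.39 ± 1.26 and -0.28 ± 0.55 on log2(RPKM + 25) (SD, n = 6, exact sign-flip p = 0.531, 0.75 and 0.5). Apart from *fkh-2*, 7 members of this list were tested, of which edgeR called 3 higher and 0 lower, where 0.844% of all 3317 genes tested were called higher and 2.62% lower. DESeq2 called the same 3 higher and *nob-1* lower. The median log2 fold change of the 7 was 0.92, and that of all genes was -0.97. At an unadjusted p under 0.05, 83 of all genes were higher and 482 lower.

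Across the whole table, edgeR called 28 genes higher in D+ (0.844% of 3317 genes tested) and 87 lower (2.62%), or 115 in either direction (3.47%). The 28 include *fkh-2*, on which the embryos were selected, and without it 27 were higher. As the median over all genes was -0.97, a gene at 0 on this scale was above the bulk of genes. With RLE in place of TMM scaling the median was -0.16, 37 genes were higher and 30 lower, and the higher share of the calls went from 24.3% to 55.2%. Every one of the 115 genes called kept its sign under RLE. Fold changes followed the level: the median was -1.96 among the 1397 genes below a mean of 100 RPKM, -0.67 among the 1483 genes from 100 to 300 RPKM, and 0.65 among the 437 genes above that. The lower depth of D+ and its smaller number of detected genes move with this trend, and their part in it was not tested.

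**Figure D2:**
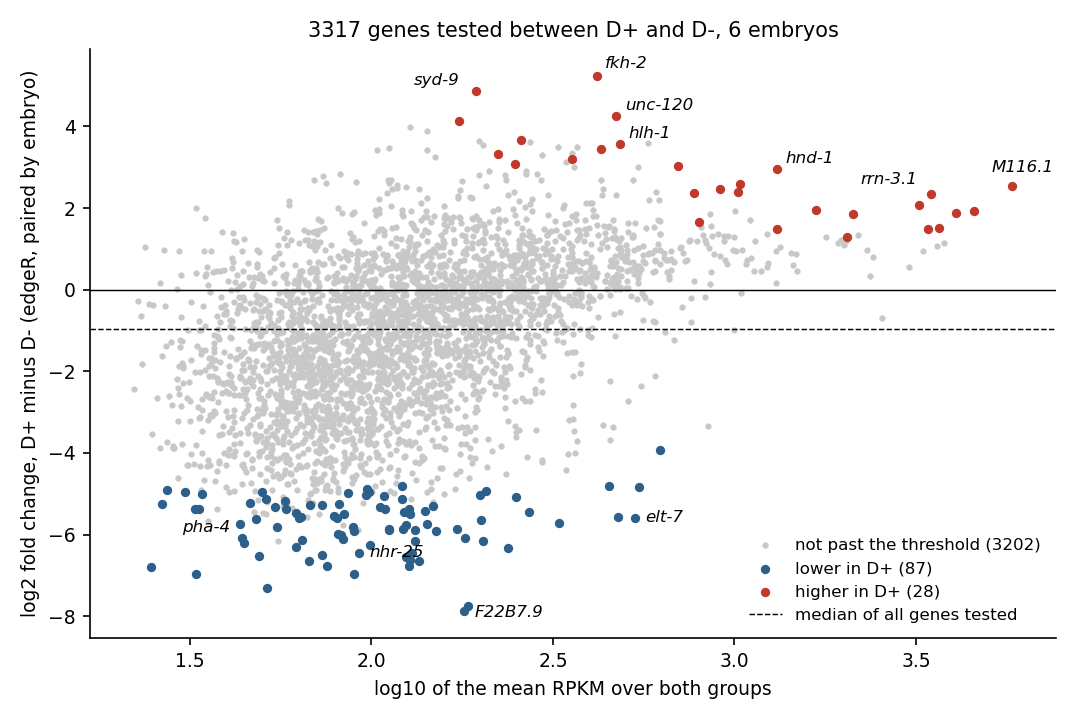
Log2 fold change of D+ over D- (edgeR, paired by embryo) against log10 of the mean RPKM over both groups, for 3317 genes. Red points are the 28 genes higher in D+, blue points the 87 lower, grey points the other 3202, and the dashed line is the median of -0.97. The rises lie mostly at high mean levels and the falls at low ones.

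The 28 rises had log2 fold changes from 1.28 to 5.24 (median 2.51). Of these, 19 were higher in 6 of 6 embryos, a pattern that 1.48% of all genes tested had, and 9 in 5 of 6. In 3 of them, *sdz-25*, *M116.1* and *F46H5.3*, every D+ library was above every D- library, as in 0.301% of all genes tested. For 17 of the 28 every D- library was above 25 RPKM, so these transcripts were also present in the rest of the embryo.

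After *fkh-2*, the largest rise was in *syd-9*, a zinc finger gene known for its role at synapses. *syd-9* was at 165, 77.9, 987, 9.11, 302 and 683 RPKM in D+ and at 18.2, 1.4, 20.0, 19.65, 7.14 and 41.2 RPKM in D-. It was higher in all embryos but embryo 4, and its log2 fold change was 4.87 (SE 1.09, edgeR adjusted p = 0.00227). The call was lost without embryo 3 (adjusted p = 0.0896), and without embryo 7 the gene missed the filter on low values.

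*dhp-2*, which encodes a dihydropyrimidinase, was at 779, 158, 336, 56.2, 257 and 286 RPKM in D+ and at 5.21, 65.1, 111, 14.9, 4.71 and 19 RPKM in D-. It was higher in 6 of 6 embryos, with D+ of embryo 4 again lowest, and had a log2 fold change of 4.12 (SE 1.09, edgeR adjusted p = 0.0128). *dhp-2* overlaps *rrp-1* on the other strand, as *hlh-1* above overlaps *B0304.4*. For the counting a strand rule was not given in the sources used here. Without embryo 1 or 7 *dhp-2* was no longer called (adjusted p up to 0.125). Water channel gene *aqp-2* was at 1166 to 2312 RPKM in 5 D+ libraries, 124 RPKM in D+ of embryo 6 and 146 to 615 RPKM in D- (log2 fold change 2.48, SE 0.76, edgeR adjusted p = 0.0387), a call lost without any 1 of embryos 1, 2, 3, 4 and 7 (adjusted p up to 0.192).

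The genes *sdz-25*, *sdz-30* and *sdz-4* take their names from a dependence on the maternal factor SKN-1. Of 6 tested genes with the name *sdz*, gathered after their values were seen, these 3 were called higher, where 0.844% of all genes tested were. The other 3 had log2 fold changes from 0.14 to 1.76. *sdz-25* was at 3601, 1400, 1372, 1264, 982 and 1290 RPKM in D+ and at 455, 212, 557, 378, 621 and 332 RPKM in D- (log2 fold change 2.60, SE 0.63, edgeR adjusted p = 0.00741). *sdz-30* was at 12 to 961 RPKM in D+ and at 4.86 to 243 RPKM in D-, overlapping between groups but higher in D+ of 6 of 6 embryos (3.33, SE 1.02, adjusted p = 0.0398). For *sdz-4*, D+ of embryo 6 was low at 20.9 RPKM, and the gene was higher in the other 5 embryos (3.02, SE 0.85, adjusted p = 0.0213). *sdz-25* lost its call without embryo 1 (adjusted p = 0.0597), *sdz-4* without any 1 of embryos 1, 2, 3, 4 and 7, and *sdz-30* without any 1 embryo (adjusted p up to 0.246 and 0.217).

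*M116.1*, next to *sdz-25* in the RefSeq annotation, was the most abundant of the 28 with 5380 to 19885 RPKM in D+ and 1291 to 3456 RPKM in D- (2.53, SE 0.63, adjusted p = 0.00763, and 0.0667 without embryo 1). The ratio of *M116.1* to *sdz-25* in RPKM was between 5.32 and 6.10 in all 12 libraries, so the values of these neighbours move as 1 and do not count as separate observations.

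Genes with roles in ubiquitin ligases moved both ways. *skr-7*, a Skp1-related component of ubiquitin ligases, was at 401 to 4766 RPKM in D+ and at 151 to 981 RPKM in D-, and each embryo had more in D+ (2.39, SE 0.74, adjusted p = 0.0416). The F-box gene *fbxb-104* was at 1181, 98.3, 1208, 13, 648 and 1219 RPKM in D+ and at 100, 92.9, 139, 0, 280 and 179 RPKM in D-. Embryo 2 differed little in *fbxb-104*, and both libraries of embryo 4 were low (3.44, SE 1.04, adjusted p = 0.0365). Of 42 tested genes with F-box names (*fbxa*, *fbxb*, *fbxc*), gathered after their values were seen, *fbxb-104* was the 1 called higher. In that set 4 were called lower, *fbxb-62*, *fbxb-78*, *fbxa-103* and *fbxc-25*, with log2 fold changes from -5.75 to -5.07. Among all genes tested, 0.844% were called higher and 2.62% lower. *pes-2.1* followed with 15.5 to 1974 RPKM in D+ and 3.18 to 269 RPKM in D- (3.20, SE 1.00, adjusted p = 0.044). The calls of *skr-7* and *pes-2.1* were lost without any 1 embryo and that of *fbxb-104* without embryo 1, 3, 4 or 7, with adjusted p up to 0.239, 0.223 and 0.166.

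The rises of smaller size were in abundant transcripts. *lbp-1*, a fatty acid binding protein gene, had 3806 to 9259 RPKM in D+ and 1696 to 3879 RPKM in D- (1.94, SE 0.39, adjusted p = 0.000334). *ttr-50*, a transthyretin-like gene, had 2197 to 11737 RPKM in D+ and 1736 to 3364 RPKM in D- (1.87, SE 0.34, adjusted p = 3.72e-05). *eef-1A.1*, a translation elongation factor gene, and *epg-2*, an autophagy gene, were higher in 6 of 6 embryos with log2 fold changes of 1.5 and 1.67. Both lost their call without any 1 of 5 embryos (adjusted p up to 0.165 and 0.101), whereas *lbp-1* and *ttr-50* held without each. Of the 27 rises other than *fkh-2*, 8 held without each embryo in turn, and 3 were lost without any 1 of the 6.

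Ribosomal RNA genes *rrn-3.1*, *rrn-1.1* and *rrn-1.2* were called too, with log2 fold changes of 2.35, 1.49 and 1.5. These genes each belong to a repeated set of near-identical copies, not all to the same set, and their separate values are uncertain. They move with the higher ribosomal RNA share of D+ libraries given above. Without the ribosomal RNA genes, edgeR called 29 genes higher and 85 lower.

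**Figure D3:**
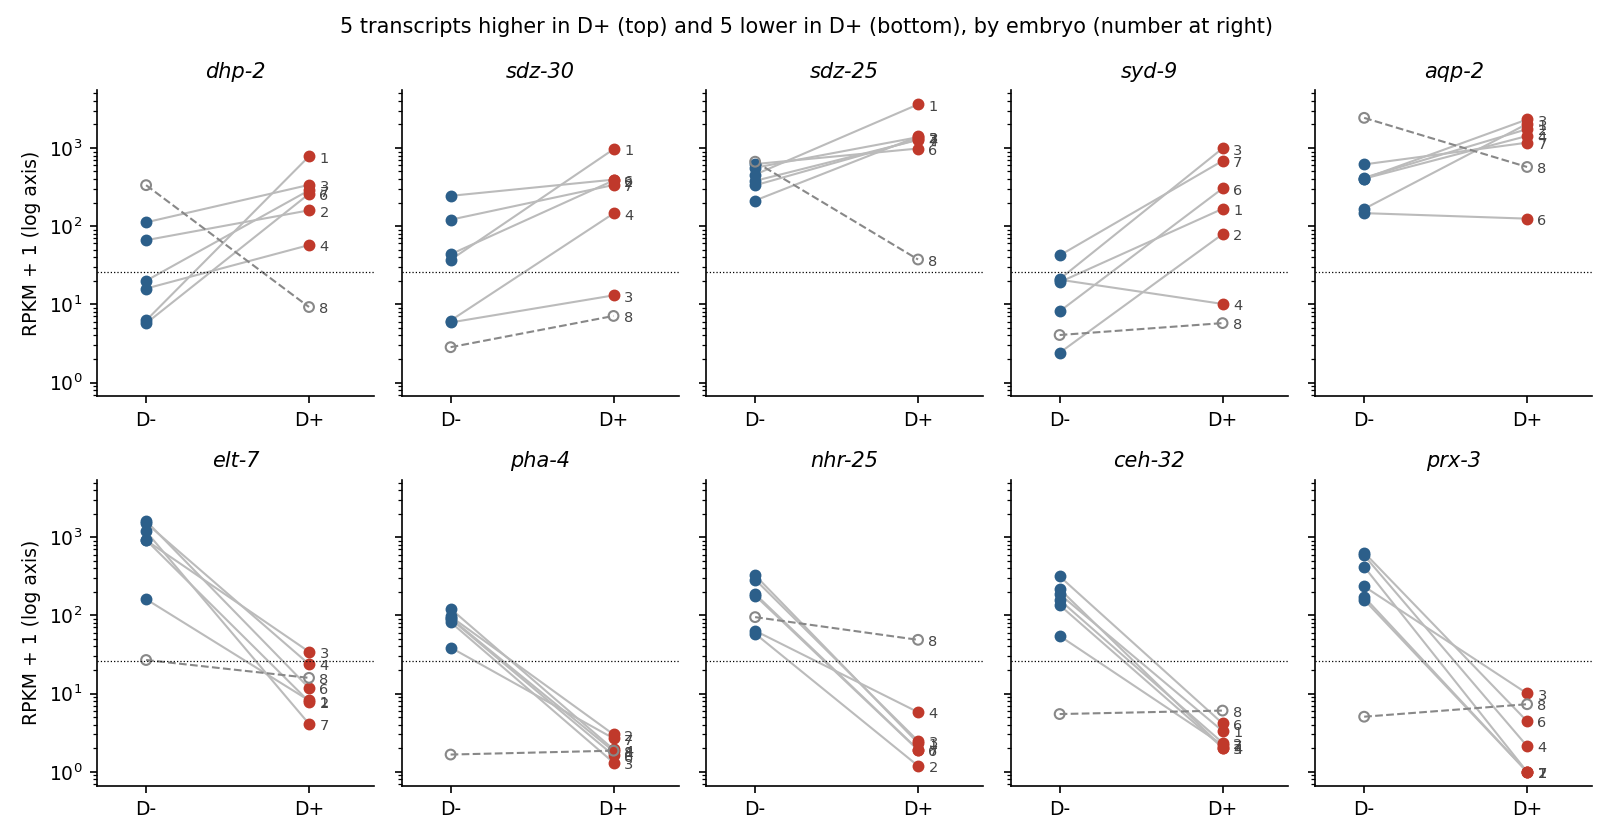
RPKM + 1 (log axis) in D- (blue) and D+ (red) of 5 transcripts higher in D+ (top) and 5 lower in D+ (bottom), with a line joining the libraries of 1 embryo and its number at the right. Open grey circles with a dashed line are embryo 8, and the dotted line marks 25 RPKM. The 5 falls do not overlap between the groups, which the filter on low values fixed in advance for *pha-4*, *nhr-25*, *ceh-32* and *prx-3*. Embryo 8, which did not enter that filter, shows no such drop.

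The 87 falls had log2 fold changes from -7.88 to -3.94 (median -5.60). Of these, 80 were lower in D+ of 6 of 6 embryos, as 9.23% of all genes tested were, and 71 did not overlap between groups, as 4.04% of all genes did. For 63 of the 87 no D+ library was above 25 RPKM. Such genes passed the filter on low values through D- alone, which 80 of the genes tested did, and could not have been tested without being lower in D+. For these 63 the filter fixed in advance the lower value in 6 of 6 embryos and the lack of overlap. The 80 falls in 6 of 6 embryos and the 71 without overlap include these 63. Those counts are thus in part fixed and are no support for falls that were even across embryos. Of the 87 falls, 18 held without each embryo in turn and 17 were lost without any 1 of the 6. In bulk samples fewer cells of a type and less RNA per cell cannot be told apart.

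The 10 largest falls all passed the filter on low values through D- alone. They could only be lower, so their p-values, here and in the next paragraph, are no support for a fall. *F22B7.9* had the largest fall (log2 fold change -7.88, SE 1.73, edgeR adjusted p = 0.00183). It was at 0 to 4.38 RPKM in D+ and at 29.2 to 613 RPKM in D-. *prx-3*, a peroxin needed to make peroxisomes, was at 0, 0, 9.03, 1.13, 3.43 and 0 RPKM in D+ and at 157 to 634 RPKM in D- (-7.75, SE 1.78, adjusted p = 0.00309). Other genes of peroxisomes were among the falls, *pmp-2*, a peroxisomal transporter gene, at -5.05 (adjusted p = 0.0284) and *dhs-28*, which acts in peroxisomal fatty acid shortening in *C. elegans*, at -5.43 (adjusted p = 0.0173). The call of *dhs-28* was lost without embryo 2, 4 or 7 and that of *pmp-2* without any 1 embryo (adjusted p up to 0.072 and 0.11). These peroxisomal genes were put together after their values were seen. How many peroxisomal genes were tested was not counted, and 2.62% of all genes tested were called lower, so they are no result about peroxisomes.

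The LIM domain gene *pin-2* was at 0 RPKM in 4 D+ libraries, at 3.09 and 1.25 RPKM in the 2 others, and at 27.5 to 264 RPKM in D- (-7.32, SE 1.88, adjusted p = 0.0101). The progranulin gene *pgrn-1* was at 0 to 5.01 RPKM in D+ and at 75.1 to 281 RPKM in D- (-6.96, SE 1.70, adjusted p = 0.0076). *tbx-7*, a T-box gene, was at 0 to 3.68 RPKM in D+ and at 28.1 to 422 RPKM in D- (-6.77, SE 1.73, adjusted p = 0.010). The nuclear receptor gene *nhr-232* and the genes *F42H10.2*, *R07H5.3*, *F55A4.8* and *Y23H5B.1* complete the 10 largest falls, with log2 fold changes from -6.96 to -6.64, and none of them was above 25 RPKM in any D+ library. *nhr-232*, *tbx-7* and *R07H5.3* overlap another coding gene. The calls of *pin-2* and *tbx-7* were lost without embryo 2 (adjusted p = 0.0507 and 0.0537), that of *R07H5.3* without embryo 3 and that of *F42H10.2* without embryo 3 or 7 (up to 0.0552 and 0.0672).

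Regulators of the other lineages were among the genes that fell. *elt-7*, a GATA factor of the gut, was at 7.17, 6.91, 33.3, 22.8, 10.8 and 3.1 RPKM in D+ and at 160, 920, 913, 1518, 1615 and 1183 RPKM in D- (-5.60, SE 1.46, edgeR adjusted p = 0.0113). *pha-4*, the FoxA factor of the pharynx, did not exceed 2 RPKM in D+ and was at 37.8 to 121 RPKM in D- (-5.74, SE 1.53, adjusted p = 0.0128). *nhr-25*, a nuclear receptor of the epidermis, was at 0.19 to 4.78 RPKM in D+ and at 57.4 to 325 RPKM in D- (-6.45, SE 1.58, adjusted p = 0.0076). The groups did not overlap in any of the 3, which the filter fixed in advance for *pha-4* and *nhr-25*.

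*ceh-32*, a Six-family homeobox gene of the head, was at 1.04 to 3.15 RPKM in D+ and at 53.6 to 315 RPKM in D- (-5.90, SE 1.53, adjusted p = 0.0103). *ceh-27*, an NK-2 type homeobox gene, *ztf-11*, a zinc finger gene known from neurogenesis and listed here with the epidermis, and the epidermal zinc finger gene *lin-26* also fell, by 5.87, 4.95 and 5.32 on the log2 scale. *lin-26* was at 0.66 to 5.96 RPKM in 5 D+ libraries but at 95.3 RPKM in D+ of embryo 4. Called by edgeR, each of them lower, were 1 of 1 gut gene tested, 2 of 3 genes of MS and the pharynx, 3 of 8 epidermal and 1 of 4 neural genes, where 2.62% of all genes tested were called lower. Of these 7 genes, 5 had no D+ library above 25 RPKM and passed the filter through D- alone, so that they could only be lower and the counts are no support for a difference of the lists. With embryo 8 kept, none of these 7 regulators was past 0.05, with adjusted p from 0.0634 to 0.162. *nhr-25* and *ceh-32* held without each of the 6 embryos, *elt-7* was lost without embryo 2 or 7 and *pha-4* without embryo 3 (up to 0.0578 and 0.0592), and the calls of *ceh-27*, *ztf-11* and *lin-26* were lost without most. With RLE scaling the adjusted p of *elt-7*, *ceh-27*, *ztf-11* and *lin-26* became 0.073, 0.081, 0.132 and 0.162.

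**Figure D4:**
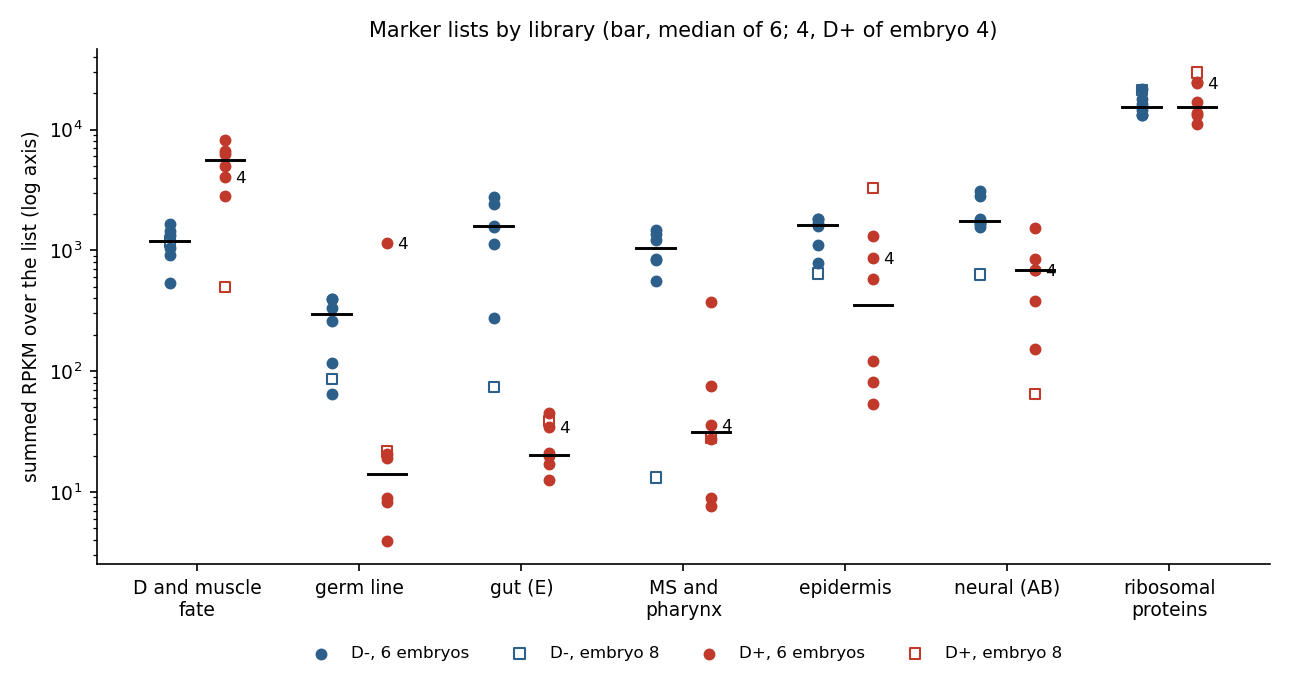
RPKM summed over each marker list (log axis) in D- (blue) and D+ (red) libraries of 6 embryos, with bars at the medians, open squares for embryo 8 and the digit 4 beside D+ of embryo 4. The D and muscle list is higher in all 6 D+ libraries, but it includes *fkh-2*, on which the embryos were selected. Gut and MS lists are lower without overlap, and the germ line list is high in D+ of embryo 4 alone.

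Summed over whole lists, D+ held 2840 to 8244 RPKM of the 12 D and muscle fate regulators, *fkh-2* included, and D- 534 to 1639 RPKM. As the embryos were selected on *fkh-2*, the separation of this sum is a description and no support. A sum without *fkh-2* was not made. The 13 gut genes summed to 12.4 to 44.9 RPKM in D+ and 277 to 2770 RPKM in D-, and the 13 genes of MS and the pharynx found in the files to 7.63 to 370 RPKM and 553 to 1461 RPKM. In D+, *med-2*, *pho-1* and *asp-1* of the gut list and *tbx-35*, *ceh-22* and *hlh-6* of the MS list had no count. The 20 epidermal genes summed to 53.7 to 1303 RPKM in D+ and 789 to 1816 RPKM in D-, and these ranges overlapped. The 20 neural genes summed to 151 to 1518 RPKM in D+ and 1573 to 3076 RPKM in D-. Much of the neural sum in D+ was *ham-1*, and without it the sum was 8.68 to 822 RPKM in D+ and 1331 to 2925 RPKM in D-.

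D+ of embryo 4 had more markers of other cell types than the other D+ libraries. It had 15 of them above 25 RPKM, and the 5 others had 2 to 5, or 14 against 1 to 4 without *ham-1*, which was above that level in all 6. Of the 15, 11 were higher and 4 lower than in D- of embryo 4. The germ line list summed to 1150 RPKM in it, to 3.95 to 20.4 RPKM in the 5 others, and to 64.9 to 399 RPKM in D-. *nos-2*, a Nanos gene of the germ line, was at 958 RPKM in D+ of embryo 4 and at 2.88 RPKM in D- of embryo 4. *glh-1*, *glh-2*, *pie-1* and *pos-1* of the germ line were also above 25 RPKM there and lower in its D- partner, as were the epidermal genes *elt-1*, *noah-1*, *lin-1* and *sma-1* and the neural genes *sox-2* and *ham-1*. The epidermal genes *lin-26*, *noah-2* and *ceh-43* and the neural gene *hlh-14* were above 25 RPKM in that library and higher in its D- partner. The part of this library's makeup in the differences was not tested. The same library had the lowest *hlh-1* and *hnd-1* of the 6 and the highest *fkh-2*. No germ line gene passed the filter for the test. Without embryo 4, 21 genes were higher and 55 lower.

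Few genes of differentiated muscle were detected in either group. Of 27 genes of the contractile apparatus, 5 were tested, the cofilin gene *unc-60* and the actin genes *act-1*, *act-2*, *act-3* and *act-4*, and edgeR called 0 (0 also at an unadjusted p under 0.05, and 1 by DESeq2, *unc-60*, higher). With 0.844% of all genes called higher and 2.62% lower, a count of 0 in lists of a few genes, here and below, is no result about them. The actin genes are near-identical copies whose reads may be split among them. *unc-60* was at 205 to 1245 RPKM in D+ and at 229 to 561 RPKM in D-, higher in 3 of 6 embryos (1.00, SE 0.82, adjusted p = 0.575). The myosin heavy chain genes *unc-54* and *myo-3* did not exceed 8.57 RPKM in any of the 12 libraries. The troponin I gene *unc-27* was above 25 RPKM in 2 D+ libraries, at up to 601 RPKM, and in no D- library.

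Attachment of muscle was represented by 5 tested genes of 17, of which edgeR called 0 (1 lower at an unadjusted p under 0.05, 0 by DESeq2). The integrin gene *pat-3* was at 43.7 to 258 RPKM in D+ and at 77.8 to 260 RPKM in D- (0.55, SE 0.97, adjusted p = 0.832). *unc-112*, the kindlin gene, reached 818 RPKM in D+ and was at 50.5 to 191 RPKM in D- (0.35, SE 1.10, adjusted p = 0.923). LIM domain gene *pxl-1*, the paxillin homolog, missed the filter with 0 to 118 RPKM in D+ and 7.97 to 103 RPKM in D-, and was higher in D+ of 2 of 6 embryos. *zyx-1* and *lim-9* did not exceed 1.38 RPKM in all 12 libraries.

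Of 12 basement membrane genes 4 were tested and edgeR called 0 (2 higher and 1 lower at an unadjusted p under 0.05 and also by DESeq2). The laminin gene *lam-1* was at 81.2 to 889 RPKM in D+ and at 52.3 to 219 RPKM in D- and was higher in 6 of 6 embryos (1.81, SE 0.78, edgeR adjusted p = 0.187). *epi-1*, a laminin alpha chain gene, was at 235.09, 271, 183, 172, 25.7 and 330 RPKM in D+ and at 126, 83.0, 99.2, 74.1, 90.4 and 63.9 RPKM in D-. In *epi-1* 5 D+ libraries were above every D- library and D+ of embryo 6 was below them all (1.65, SE 0.54, adjusted p = 0.0573). Without embryo 6 its adjusted p was 0.00821. *dgn-1*, a dystroglycan gene, showed the reverse, with 451 RPKM in D+ of embryo 6 and 0.21 to 19.7 RPKM in the 5 others, against 34 to 254 RPKM in D- (-4.47, SE 1.65, adjusted p = 0.105). Another laminin gene, *lam-3*, missed the filter, with 0.91 to 3.67 RPKM in D+ and 19.65 to 129 RPKM in D-, and was lower in D+ of 6 of 6 embryos.

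Lists of genes that act in cell internalization were compared next. Of 12 tested genes of actomyosin contraction edgeR called 0 (median log2 fold change -0.64, 0 higher and 1 lower at an unadjusted p under 0.05, 1 and 1 by DESeq2). Of 8 tested genes of the cadherin complex and junctions it also called 0 (median -0.72, 0 and 2 at that p, 0 and 2 by DESeq2). *ani-1*, the anillin gene, was at 50.1 to 264 RPKM in D+ and at 38.5 to 68.5 RPKM in D-, higher in 5 of 6 embryos (1.84, SE 0.99, edgeR adjusted p = 0.327, DESeq2 adjusted p = 0.00408). *pkc-3*, the atypical protein kinase C of the PAR system, was the 1 called gene of 2 tested there and fell, from 22.5 to 152 RPKM in D- to 0.23 to 30.9 RPKM in D+ (-5.62, SE 1.70, adjusted p = 0.0366). *cwn-2*, a Wnt ligand, was the 1 gene that edgeR called among 12 tested Wnt pathway genes (-5.56, SE 1.77, adjusted p = 0.0497). The call of *pkc-3* was lost without embryo 1, 2, 3, 6 or 7 (adjusted p up to 0.116), and without embryo 4 it missed the filter, while that of *cwn-2* was lost without embryo 1, 2, 3, 4 or 7 (up to 0.174). In the Wnt list 1 gene was higher and 1 lower at an unadjusted p under 0.05, and DESeq2 called *dsh-2*, a Dishevelled gene, higher besides *cwn-2*. *dsh-2* was at 3.11 to 817 RPKM in D+ and at 13.7 to 142 RPKM in D-, higher in 5 of 6 embryos. *pkc-3* and *cwn-2* each overlap a gene on the other strand. Of 13 tested cell cycle genes edgeR called 0, as did an unadjusted p under 0.05 and DESeq2. Of 46 cytosolic ribosomal protein genes it called 0 (median 0.17, 1 higher at an unadjusted p under 0.05, 3 higher by DESeq2).

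Whether the difference between D and the rest of the embryo was shared with other lineages was tested on the same 3317 genes. Against MS, edgeR placed 5 genes past 0.05 with a larger, meaning more positive, difference in D (0.151% of genes tested) and 0 with a smaller one. By the design of the dissection MS- and C- hold the D cells, and D- holds MS and C cells. A transcript high in D thus also raises MS- and makes the effect in MS more negative. The part of this overlap in the differences was not tested. Of the 5, *fkh-2* is no result, since the embryos were selected on it, and the other 4 were *dhp-2*, *spp-10*, *ZC373.1* and *ham-1*. For each of these 4 the difference of effects was larger than the effect in D, so the effect in MS went the other way. At an unadjusted p under 0.05 in this comparison, 94 genes were on the higher and 96 on the lower side, and DESeq2 called 126 and 82. Without any 1 of embryos 1, 2, 3, 4 and 6, or with embryo 8 kept, none was higher, and without embryo 7 the count was 1.

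*spp-10*, a saposin-like gene, was the most even of the 4, at 530, 819, 622, 442, 733 and 841 RPKM in D+ and at 139, 170, 172, 324, 185 and 221 RPKM in D-. All 6 D+ libraries were above all D- libraries, yet in D alone it missed the threshold (log2 fold change 2.46, SE 0.84, edgeR adjusted p = 0.0738). It was at 1.58 to 15.4 RPKM in MS+ and at 5.82 to 599 RPKM in MS-, and its effect in D was larger than in MS by 6.55 (SE 1.4, adjusted p = 0.046). In C-in *spp-10* was at 793 to 1942 RPKM.

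*dhp-2* did not exceed 3.29 RPKM in MS+ and was at 1.43 to 69.9 RPKM in MS- (effect in D larger by 8.38, SE 1.83, adjusted p = 0.046). In C-in it was at 27.1 to 971 RPKM. *ZC373.1* was at 151, 302, 1053, 114, 836 and 63.2 RPKM in D+ and at 7.74 to 140 RPKM in D-, higher in all embryos but embryo 7. It was at 0.47 to 159 RPKM in MS+ and at 67.0 to 236 RPKM in MS- (effect larger by 7.14, SE 1.59, adjusted p = 0.046).

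*ham-1*, a winged helix gene known for asymmetric divisions of neuroblasts, was at 806, 125, 696, 363, 297 and 679 RPKM in D+ and at 242, 151, 112.01, 163, 320 and 103 RPKM in D-. It was higher in 4 of 6 embryos and not called in D (2.07, SE 0.84, adjusted p = 0.150). It was at or below 25 RPKM in 6 of 7 MS+ libraries and 4 of 5 C-in libraries, while MS- was at 61.7 to 253 RPKM (effect in D larger than in MS by 5.89, SE 1.29, adjusted p = 0.046). Its effect in D was larger than in C-in by 5.91 (SE 1.44, edgeR adjusted p = 0.326).

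**Figure D5:**
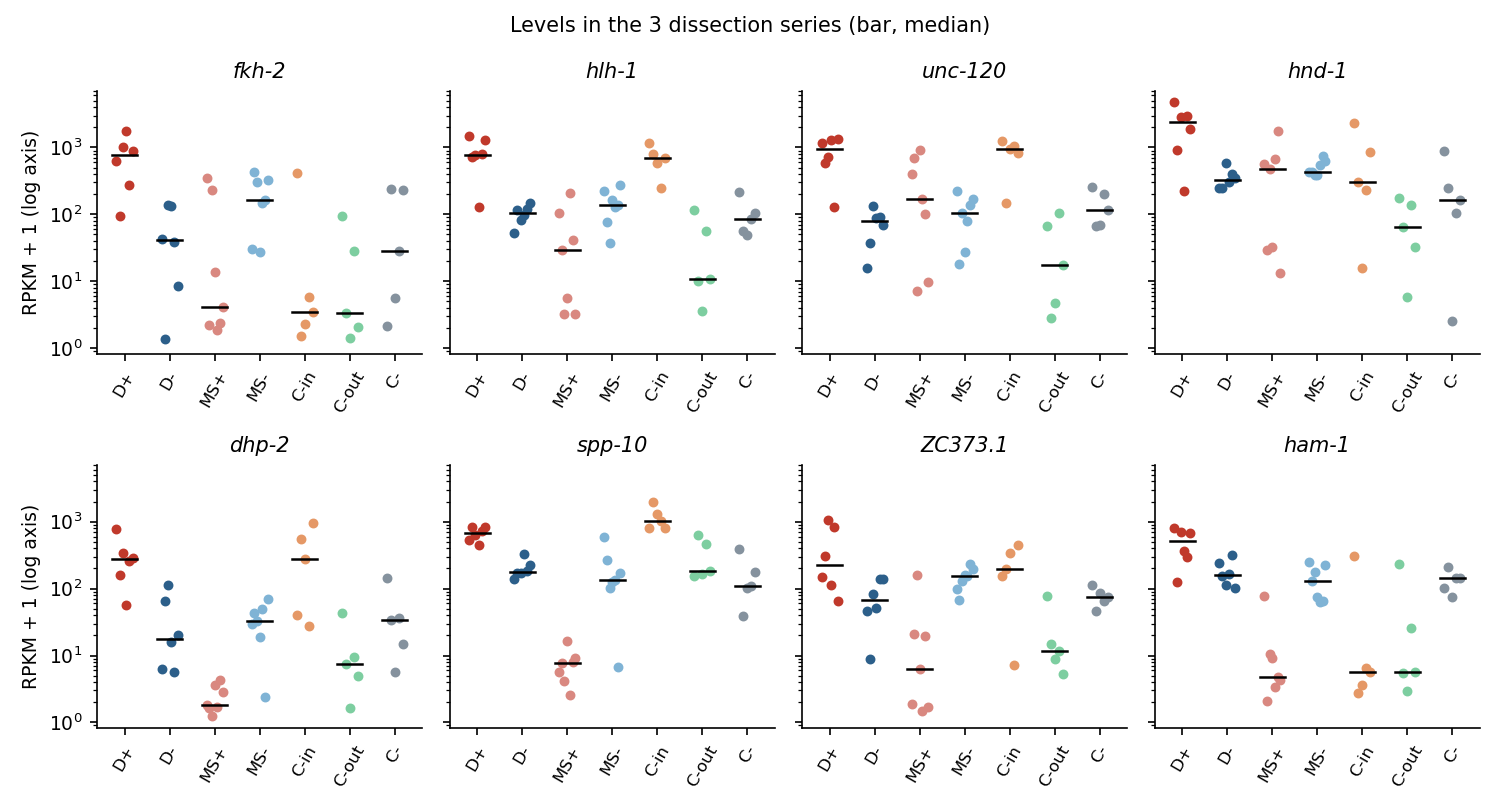
RPKM + 1 (log axis) of 8 genes in each library of D+, D- (6 embryos), MS+, MS- (7 embryos) and C-in, C-out, C- (5 embryos), with bars at the medians. *hlh-1* and *unc-120* are high in D+ and C-in, *dhp-2* and *spp-10* are low in every MS+ library, and *ham-1* is high in D+ but low in most MS+, C-in and C-out libraries.

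C-in cells also form body wall muscle. Against C-in, edgeR called no gene for a difference of effects (0 higher and 0 lower of 3317, lowest adjusted p 0.326), which does not show that the effects were alike. The 3317 genes were filtered on the D libraries alone, so *vab-7*, at up to 919.5 RPKM in C-in, was not among them. At an unadjusted p under 0.05 there were 110 genes on the higher and 104 on the lower side, and DESeq2 called 125 and 94. *hlh-1*, whose promoter is also a marker of the C dissection, was at 249 to 1148 RPKM in C-in, and the effect in D minus that in C-in was -0.09 (SE 1.18). *unc-120* was at 149 to 1251 RPKM in C-in, with a difference in effect of 1.09 (SE 1.12). *hnd-1* was at 14.6 to 2345 RPKM in C-in, and its effect differed by 0.71 (SE 1.04). *cwn-1* was at 6.45 to 1430 RPKM in C-in, and its effect in D minus that in C-in was -6.76 (SE 1.94, edgeR adjusted p = 0.436). Standard errors of this size leave room for differences of several fold in either direction.

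The rejected embryo 5 and embryo 8 give a look at libraries outside the test. In embryo 5, whose D+ library held 52475 counts, 25 of the 27 rises other than *fkh-2* were higher in D+, beside 38.3% of all genes tested, and 63 of the 87 falls were lower, beside 61.4%. In embryo 8, 14 of the 27 were higher, beside 48.3%, and 28 of the 87 were lower, beside 50.4%. With embryo 8 in the fit 8 genes were higher, all among the 28, and 6 lower, of which 4 were among the 87, and the 115 genes kept their sign.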

How the data were processed

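Worms of the marker strains were grown and dissected by the authors, the lysed cells gave cDNA by SMARTer Ultra Low amplification, and Nextera XT was used for libraries. The authors deposited, for each library, the read count of each of 31383 genes, the gene length and the RPKM value. The deposited counts are whole numbers of sequenced reads, not of molecules. The deposited RPKM values are the authors' scaling of these counts by length and depth, in which a length of 2500 stands for 1350 genes. The submitters' processing notes name ce10 and bedtools without a role, and an aligner and a strand rule were not given in the sources used here. Coverage tracks were not used here.

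Counts of the 12 libraries entered edgeR's quasi-likelihood test (glmQLFit) after TMM scaling, with the embryo as a block. Genes above 25 RPKM in at least 6 of the 12 libraries were tested, with Benjamini-Hochberg adjustment over 3317 genes and a threshold of 0.05. The residual degrees of freedom were 5 and the common biological coefficient of variation was 1.12. The median prior degrees of freedom were infinite, so the spread of every gene was taken from the trend over genes and the 5 did not limit the test. Differences of effects were interaction terms in fits with the MS or C libraries. Genes of the fate list under the filter were compared on log2(RPKM + 25) by an exact sign-flip test over 64 assignments.

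Pairing comes from the design, since both libraries of a number came from 1 embryo. After removal of group means, libraries of the same embryo correlated at 0.0157 to 0.159 and other pairs at -0.0128 on average. No 2 libraries held identical values. P-values of edgeR set a gene's difference against a spread between embryos that was taken from the trend over genes. The gene's own spread between embryos does not enter them, so a very small p does not mean that a gene was even across embryos. The same holds for a small SE, which was the fold change without its sign divided by the square root of the test's F statistic. The sign-flip p-values rest on the gene's own paired differences.

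Named were the given markers, all fate regulators, the 10 largest rises and 10 largest falls among called genes that changed alike in all 6 embryos, the list members called or most changed, and genes called in the differences of effects. *syd-9*, *aqp-2*, *lbp-1*, *ttr-50*, *eef-1A.1*, *epg-2*, *sdz-4*, *F46H5.3*, *pmp-2*, *dhs-28*, the ribosomal RNA genes and the list members outside that rule were picked after their values were seen. The members and the gene lists were chosen with earlier results of these data known. *myo-1*, *mlc-5*, *picc-1*, *elt-5* and *tln-1* were not found in the tables.

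Of 139 named or called genes, 137 were matched by name in the Ensembl WBcel235 or RefSeq annotation, which served for names and overlaps. Of these, 28 overlap a coding gene on the other strand, among them *hlh-1*, *pal-1*, *spp-10*, *ttr-50*, *eef-1A.1*, *epg-2*, *epi-1* and *dhs-28*. On the same strand 7 overlap a coding gene, *lin-26* among them. Alternatives were no block, embryo 8 kept, embryo 5 added, RLE scaling, other filters, DESeq2, limma on log2(RPKM + 25) and leaving out each embryo, and leaving out ribosomal RNA genes was added after seeing the data. Fits ran in DESeq2 1.42.0, limma 3.58.1 and edgeR 4.0.16 under R 4.3.3, and tables and plots in Python 3.11.15 (scipy 1.17.1, pandas 2.3.3, matplotlib 3.10.9, numpy 2.4.6).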

Additional observations from a re-analysis of the deposited data

Results flagged for a closer look

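Within groups of 6 libraries, 13 of 68 groups of values examined had a library far from the others, where chance gives about 1 in 20. In D+ these were *tbx-8* at 617 RPKM in embryo 7, *nob-1* at 731 RPKM and *pes-2.1* at 1974 RPKM and *skr-7* at 4766 RPKM in embryo 6, *sdz-25* at 3601 RPKM and its neighbour *M116.1* at 19885 RPKM in embryo 1, and *php-3* at 43.3 RPKM in embryo 4. Low genes gave the rest, with *vab-7* at 17.8 RPKM and *nhr-232* at 3.01 RPKM in D+ of embryo 3, *F42H10.2* at 1.77 RPKM in D+ of embryo 4, *vab-7* at 161 RPKM and *scrt-1* at 40.1 RPKM in D- of embryo 2, and *php-3* at 91.2 RPKM in D- of embryo 3.

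The effect in D differed from that in MS by edgeR's test of the difference, on the log2 scale by 8.38 for *dhp-2*, 7.14 for *ZC373.1*, 6.55 for *spp-10* and 5.89 for *ham-1*.

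In the rejected embryo 5, *hlh-1* at 167 RPKM and *hnd-1* at 1125 RPKM in D+ were above their levels in D- of that embryo, at 44.4 and 676 RPKM, while *unc-120* was at 44.2 RPKM in D+ and 196 RPKM in D-.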

How the results depend on the processing

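Against 28 genes higher and 87 lower in D+, there were 29 and 76 with no replicate block, 8 and 6 with embryo 8 kept, 32 and 285 with embryo 5 added, 37 and 30 with RLE scaling, 33 and 304 with edgeR's own filter, 10 and 4 with no filter beyond 1 count, 273 and 441 with DESeq2 and 20 and 231 with limma. Leaving out 1 embryo gave 13 to 31 higher and 33 to 74 lower, with 17 and 33 without embryo 2, 13 and 36 without embryo 3, 21 and 55 without embryo 4 and 14 and 50 without embryo 7. For the effect in D against that in MS, 5 higher and 0 lower became 16 and 16 with no replicate block, 0 and 0 with embryo 8 kept, 126 and 82 with DESeq2, and 0 to 1 and 0 to 2 without 1 embryo. Against C-in, 0 and 0 became 125 and 94 with DESeq2 and 0 to 1 and 0 to 0 without 1 embryo. Higher calls shared with the 28 numbered 22 with no replicate block, 8 with embryo 8 kept and 17 with limma. With no replicate block the median log2 fold change over all genes was 0.69, and 84 of the 87 falls kept their sign. The sign turned for *pal-1* (1.14 with no replicate block, 0.64 with RLE, 0.047 with no filter, 0.63 with DESeq2, -1.22 to 0.92 without 1 embryo), for *act-3* (0.029 with no block, 0.18 with RLE, 0.19 with DESeq2), for *vab-7* (-0.61 to 0.11) and *php-3* (-0.61 to 0.10) without 1 embryo, and with no replicate block for *cwn-1* (1.57), *nob-1* (0.55), *ina-1* (0.66), *pat-6* (0.51), *dgn-1* (0.60), *chk-1* (1.78) and *cdk-2* (0.073). edgeR called none of these genes and DESeq2 called *nob-1* and *dgn-1* lower (adjusted p = 0.00281 and 0.00478), and the cause was not tested. A count of 0 in D+ allows up to 2.34 CPM at these depths.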
